A study of Bos taurus with 8 samples.

Results

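The ERBB receptors, their ligands and the CBL ubiquitin ligases were described across 6 bovine embryo-derived stem-like cell (eSLC) lines and somatic cells (SCs). The group was made up of 10 genes: the receptors ERBB2 and ERBB3, the ligands AREG, EREG, HBEGF, EGF, TGFA and BTC, and the ligases CBLB and CBLC. Its members were found by matching the RefSeq accession of each array probe, without its version, to the bovine gene. Of the 10 genes, 6 had a named probe, with 12 probes in all, out of 12603 genes named on the array. ERBB2, EREG, EGF and TGFA had no probe that matched, and their levels were not analysed here.

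eSLCs are colony-forming cells derived from blastocysts and kept on STO cells, a mouse feeder line. The IVP-eSLCs, from embryos produced in vitro, were I2 at passage 35 and I9 at passage 30. The NT-eSLCs, from somatic cell nuclear transfer embryos, were N2 at passage 36 and N7 at passage 30, and the nuclear donor cells came from ear skin. The PA-eSLCs, from parthenogenetic embryos, were P1 at passage 31 and P4 at passage 36. SCs were measured at passages 5 and 10. All cells are labelled as HanWoo, the Korean native cattle breed. The medium of the eSLCs held PD184352, an inhibitor of the ERK kinase MEK, SU5402, an inhibitor of FGF receptors, and CHIR99021, an inhibitor of GSK3. The SCs were grown in DMEM with 10% FBS. Passage also differed, at 30 to 36 in eSLCs and 5 and 10 in SCs, and feeder cells are described for the eSLCs alone. Cell type, medium, passage and feeder therefore cannot be told apart in any comparison of eSLCs with SCs. Each line is 1 array, and the sources used here do not say whether both SC passages came from separate cultures, so the p-values measure only the spread between these samples, which may in part be technical.

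RNA was hybridized with 1 dye, each sample on its own Agilent bovine array, and between 71.2% and 76.7% of the spots of an array were well above background in the scanner software's call. Slide 1 carried the IVP lines, N7 and SC P5, and slide 2 the PA lines, N2 and SC P10. Signals are given as normalized signals, with the 75th percentile of each array at 1000, and, apart from the sums over marker lists and the naming of their brightest marker, signals of different probes were not set against each other. For the fits, signals under a floor of 13.3 were raised to it and taken to log2, and a gene was represented by its brightest probe. The 10962 genes with a signal well above background on both arrays of 1 condition or more were tested with limma, and were called up-regulated or down-regulated at an adjusted p under 0.05 (Benjamini-Hochberg over all genes tested) and a difference of at least 2-fold. The median log2 difference of eSLCs from SCs over all genes tested was 0.23 and lay between 0.06 and 0.19 under the other scalings and backgrounds tried.

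The labels were checked against marker genes. Of all genes tested, 19.6% were up-regulated in eSLCs against SCs and 15.7% down-regulated. Of the 7 epithelial markers with a probe, 7 were up-regulated in eSLCs, with a summed signal of 58010 to 80210 in the lines, led by EPCAM, and of 350.3 to 596.1 in SCs, led by CLDN7, where CDH1 and ESRP1 were not well above background. Of the 9 trophectoderm markers tested, 8 were up-regulated, and the sum over 10 markers was 443000 to 1168000 in eSLCs, led by KRT8, and 19410 to 19980 in SCs, led by TFAP2A. CDX2 was not well above background in SCs, nor EOMES on any array. Of the 11 fibroblast markers, 9 were down-regulated in eSLCs, with sums of 13500 to 71130, led by FN1, against 697900 to 860700 in SCs, led by VIM. N7 had the lowest trophectoderm and epithelial sums of the 6 lines. KRT8, KRT18 and KRT19 made up most of its trophectoderm sum, at 135100, 130600 and 82190. N7 was the lowest line for these and for GATA3, TFAP2A, ELF3, CLDN4, ESRP1 and ESRP2. It was not the lowest for CDX2, GATA2, TFAP2C, CDH1, EPCAM, CLDN6 or CLDN7. Its fibroblast sum of 71130 was the highest, but FN1, which was not called, made up 64260 of it, and without FN1 the sum was 6871 in N7 and 5531 to 10750 in the other lines. N7 was the highest line for 3 of the 11 fibroblast markers (PDGFRA, FN1 and LUM) and the lowest for 3 (COL1A1, THY1 and PDGFRB). Of 5 keratinocyte markers none was called, with sums of 1466 to 3555 in eSLCs and 3072 to 6382 in SCs, led by KRT14 in both. Of 5 blood and endothelial markers 4 were tested and 1, PTPRC, was up-regulated. Their sums were 9911 to 27500 in eSLCs and 3403 to 3631 in SCs, led by PTPRC in both. The 4 probes of PTPRC had log2 differences from 0 to 2.15. With the probes of a gene averaged, no marker of this list was called. The epithelial, trophectoderm and fibroblast lists moved with the differences of eSLCs from SCs that follow, and their part in those was not tested. In bulk RNA, fewer cells of a type and less RNA per cell cannot be told apart.

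ERBB receptors are tyrosine kinases of the cell surface that pair up when a ligand of the EGF family binds to them. ERBB2 has no known ligand of its own and serves as a partner, while ERBB3 binds neuregulins, has little kinase activity and passes its signal mainly to PI3K. The EGF family ligands are made as membrane proteins and are released by proteases, and the signal then runs through RAS to ERK and through PI3K to AKT. CBL proteins attach ubiquitin to activated receptors and send them to the lysosome. In early embryos, HBEGF is best known for its part in the attachment of the blastocyst to the uterus.

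ERBB3 was the receptor measured, and its signal was high in all 6 eSLC lines and close to background in SCs. Its brightest probe (A_73_120913) gave 8290 in I2, 11280 in I9, 15160 in N2, 3798 in N7, 9059 in P1 and 8147 in P4. It gave 28.7 in SC P5 and 18.1 in SC P10, both well above background. The lines and the SCs did not overlap, and N2 was the highest and N7 the lowest line. The mean log2 difference of eSLCs from SCs was 8.55 ± 0.53 (SE, n = 6 and 2; 95% confidence interval 7.26 to 9.85; limma adjusted p = 0.000107). The other probes of ERBB3 moved the same way. A_73_P399221 ranged from 51.6 to 221.5 in eSLCs and A_73_P090716 from 45.9 to 156.3, and neither was well above background in SCs, where the eSLC means were at least 11.2-fold and at least 10.4-fold higher. These are lower bounds, taken as the eSLC mean over the weakest signal that the software called well above background on the SC arrays.

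**Figure D1:**
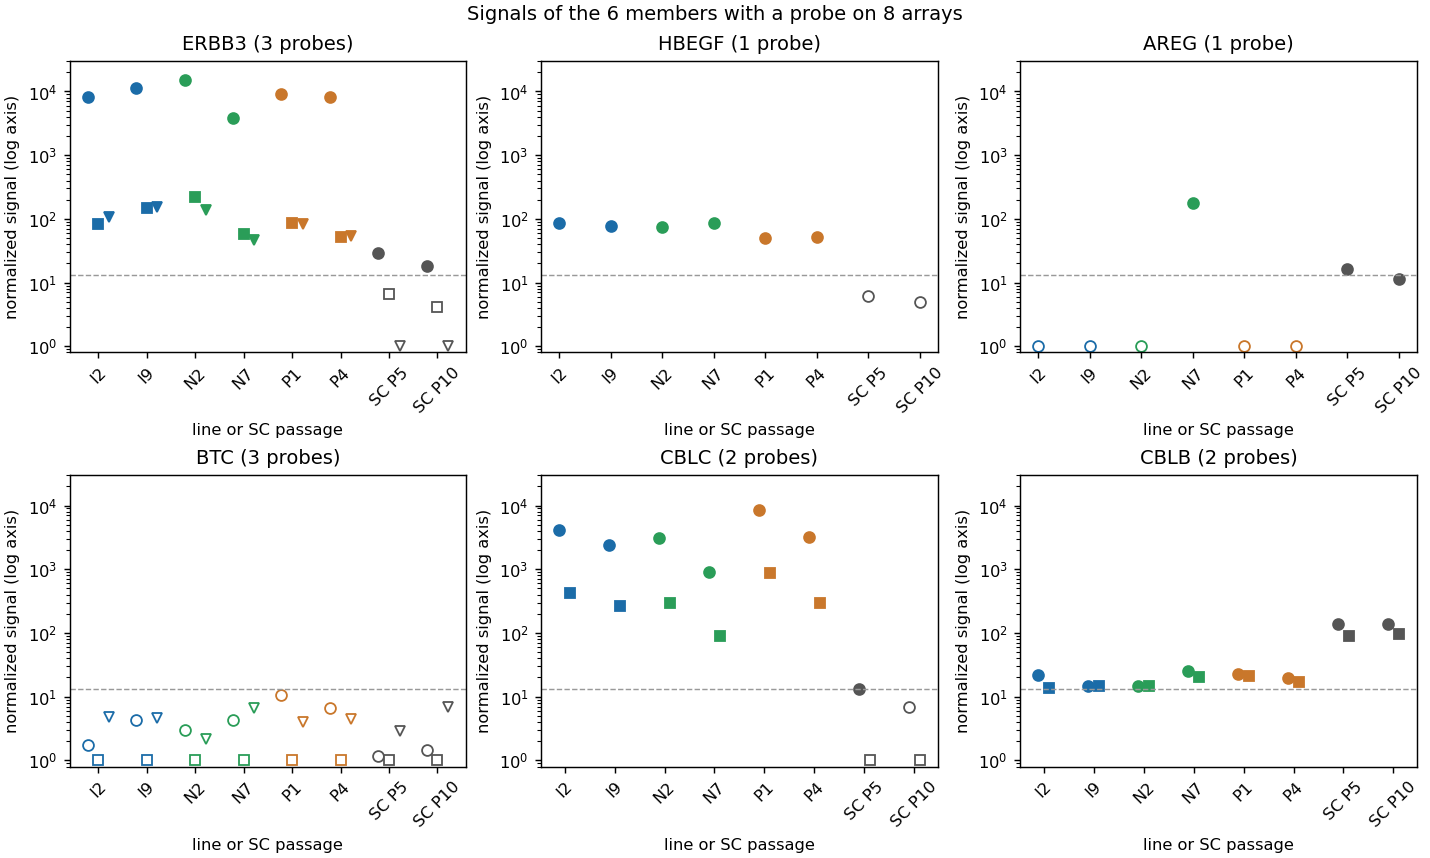
Normalized signal (log axis) of each probe of the 6 members with a probe, on 6 eSLC arrays (blue IVP, green NT, orange PA) and 2 SC arrays (grey). Marker shapes are the probes of a gene, filled markers are well above background, signals under 1 are drawn at 1, and the dashed line is the floor of 13.3. ERBB3 and CBLC lie at 911.6 or higher in every line for their brightest probe, CBLB is higher in SCs, and AREG is filled in N7 and SCs alone.

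HBEGF, a ligand of EGFR and ERBB4, was well above background in all 6 lines and in neither SC array. Its probe (A_73_P052476) gave 86.0 in I2, 77.3 in I9, 74.0 in N2, 86.8 in N7, 50.01 in P1 and 51.5 in P4, and 6.12 and 4.91 in SC P5 and SC P10. The signal was modest, and the PA lines were the lowest of the 6. The eSLC mean was at least 8.21-fold higher than SCs, at least 9.67-fold in IVP-, 9.51-fold in NT- and 6.02-fold in PA-eSLCs. In the fit, with SCs at the floor, the log2 difference was 2.38 ± 0.15 (SE, n = 6 and 2; limma adjusted p = 0.000104), and both SC arrays had the same value there, so that this error leaves out the spread of the SCs. With a floor 4 times as high the log2 difference was 0.40 and was not called.

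AREG, amphiregulin, a ligand of EGFR, was well above background in 1 of the 6 eSLC lines. Its probe (A_73_104964) gave 175.1 in N7, and between -3.33 and 0.43 in I2, I9, N2, P1 and P4, where it was not well above background. In SC P5 it gave 16.2 and in SC P10 11.48, both well above background. N7 was at least 16.4-fold above the mean of the other lines, at least 13.2-fold above N2, whose limit was the highest, and 12.8 times the SC mean, while N2 is the other NT line. SCs were at least 1.47-fold above IVP-eSLCs and at least 1.25-fold above PA-eSLCs. The fitted log2 difference of eSLCs from SCs was 0.48 ± 0.89 (SE, n = 6 and 2; 95% confidence interval -1.72 to 2.67; limma adjusted p = 0.687) and was not called. It was -0.14 without N7 and 1.096 without N2, where N7 alone stood for the NT lines. Without N2 the NT lines gave no spread, and the IVP and PA lines all lay at the floor, so the error of that fit cannot be judged. AREG was tested through the SC arrays, since no eSLC condition had it well above background on both arrays.

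In the RefSeq annotation of the cattle genome (ARS-UCD2.0), no protein-coding gene lies between AREG and EREG or between AREG and BTC, and 1 lies between AREG and EPGN. EREG and EPGN had no named probe. BTC, betacellulin, a ligand of EGFR and ERBB4, had 3 probes, and none of them was well above background on any of the 8 arrays, N7 included. Its signals reached 10.7 at most, in P1, and BTC was not tested.

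CBLC, the CBL family member known mainly from epithelia, followed ERBB3 in being high in every eSLC line. Its brightest probe (A_73_106812) gave 4146 in I2, 2392 in I9, 3139 in N2, 911.6 in N7, 8374 in P1 and 3268 in P4. It gave 13.4 in SC P5, just above background, and 6.83 in SC P10, where it was not well above background. The lines and the SCs did not overlap. The log2 difference was 7.83 ± 0.58 (SE, n = 6 and 2; 95% confidence interval 6.41 to 9.25; limma adjusted p = 0.000212), with SCs at or next to the floor, so that its size depends on the floor. The other probe (A_73_P290236) gave 91.2 to 861.7 in eSLCs and signals below 0 in SCs, and eSLCs were at least 35.9-fold higher.

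CBLB, which is widely expressed and is best known for restraining lymphocyte activation, ran the other way. Its brightest probe (A_73_P096041) gave 21.6 in I2, 14.5 in I9, 14.9 in N2, 25.1 in N7, 23.0 in P1 and 19.8 in P4, against 140.1 and 139.4 in SCs at passages 5 and 10. All arrays were well above background, the lines lay close to the floor, and the groups did not overlap. The log2 difference was -2.85 ± 0.27 (SE, n = 6 and 2; 95% confidence interval -3.50 to -2.20; limma adjusted p = 0.000504). The other probe (A_73_P106881) gave 13.8 to 21.0 in eSLCs and 89.9 and 95.3 in SCs, a log2 difference of -2.48.

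Of the 5 members tested, ERBB3, HBEGF and CBLC were called up-regulated in eSLCs, where 19.6% of all genes tested were, and CBLB was called down-regulated, where 15.7% were. HBEGF and CBLC entered the test only through the eSLC arrays on which they are high, so the count is a description and not evidence about the group. When only genes well above background on all 8 arrays were kept, ERBB3 and CBLB alone could be tested, and both were called. ERBB3, CBLC and CBLB kept their direction and their call in eSLCs against SCs under every alternative that tested them.

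Each origin was then compared with SCs. These comparisons share the SC arrays and are therefore not independent of each other. ERBB3, HBEGF and CBLC were up-regulated in IVP-eSLCs (17.7% of all genes), NT-eSLCs (15.8%) and PA-eSLCs (20.3%), and CBLB was down-regulated in each (14.6%, 13.9% and 14.9%). By the methods' t-test after Benjamini-Hochberg, CBLB was not called for IVP-eSLCs and no member for NT-eSLCs, and with the authors' normalized values CBLB and HBEGF were not called for PA-eSLCs. The log2 difference of ERBB3 was 8.73 ± 0.65 in IVP-, 8.38 ± 0.65 in NT- and 8.56 ± 0.65 in PA-eSLCs (SE, n = 2 and 2). That of CBLC was 7.88, 6.99 and 8.62, each ± 0.71, and that of CBLB -2.98, -2.86 and -2.71, each ± 0.32. For HBEGF the values were 2.62, 2.59 and 1.93, each ± 0.18. AREG was not called for any origin, with -0.14 for IVP- and PA-eSLCs and 1.72 ± 1.096 for NT-eSLCs, whose lines gave opposite results.

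Within slide 1 the log2 difference of eSLCs from SCs was 7.95 for ERBB3, 7.28 for CBLC, 2.65 for HBEGF and -2.82 for CBLB. Within slide 2 it was 9.16, 8.38, 2.12 and -2.88 in the same order. The direction was thus the same on both slides for these 4 genes. For AREG it was 0.95 on slide 1, which holds N7, and 0 on slide 2, where every array lay at the floor.

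**Figure D2:**
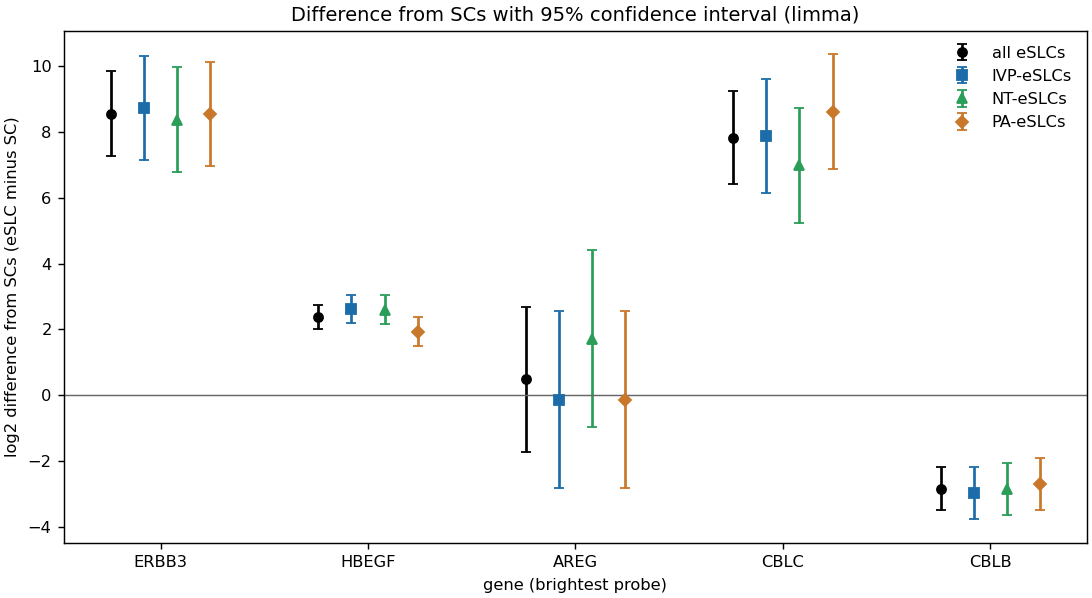
Log2 difference from SCs (eSLC minus SC) of the 5 members tested, for all eSLCs (black, 6 arrays) and for each origin (2 arrays each), against the same 2 SC arrays. Bars are 95% confidence intervals from limma, and those of AREG include 0 in all 4 comparisons, while the intervals of the 3 origins overlap for each gene.

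The NT- and PA-eSLCs were compared with the IVP-eSLCs to ask whether the origin of the embryo mattered. No member was called in either comparison, and limma called 0% of the 10962 genes. Before adjustment, 308 genes (2.81%) had a p under 0.05 in the first comparison and 572 (5.22%) in the second. For ERBB3 the log2 difference was -0.35 for NT- against IVP-eSLCs (95% confidence interval -1.94 to 1.24) and -0.17 for PA- against IVP-eSLCs (-1.76 to 1.42), so that changes of 2-fold in either direction lie within the intervals. CBLC gave -0.90 (-2.64 to 0.84) and 0.73 (-1.01 to 2.47), and CBLB 0.13 (-0.67 to 0.92) and 0.27 (-0.52 to 1.07). AREG gave 1.86 (-0.83 to 4.55) for NT- against IVP-eSLCs.

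HBEGF was the member with the narrowest interval between origins. Its error was shared with both SC arrays, which lay at the floor and had no spread there. The intervals and the p-values below may therefore be too small. NT- and IVP-eSLCs differed by -0.02 (95% confidence interval -0.46 to 0.41). PA-eSLCs were lower than IVP-eSLCs by a log2 difference of -0.68 (-1.12 to -0.25), at 50.01 and 51.5 against 86.0 and 77.3, with an unadjusted p of 0.00886 in limma and an adjusted p of 0.85, which did not pass. Both PA lines lay on slide 2 and both IVP lines on slide 1, so that slide and origin cannot be told apart in this pair. On slide 2, N2 at 74.0 lay above both PA lines.

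Among the 4 members well above background in all 6 lines, CBLC differed most between lines. Its highest line, P1, was 9.19 times its lowest, N7, and the SD of its log2 signal over the 6 lines was 1.05, larger than for 93.5% of the 9872 genes well above background in all of them (median SD 0.35). ERBB3 had an SD of 0.67, larger than for 82.5% of those genes, and its highest line, N2, was 3.99 times N7. HBEGF and CBLB had SDs of 0.36 and 0.33, near the median. The probes of a gene showed the same lines as high or low: P1 was the highest and N7 the lowest in both probes of CBLC, and N2 and I9 were the highest lines in all 3 probes of ERBB3. N7 was the lowest line in 2 of the 3 ERBB3 probes, and P4 in the other. For CBLB, whose signals lay near the floor, the probes named different extremes.

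**Figure D3:**
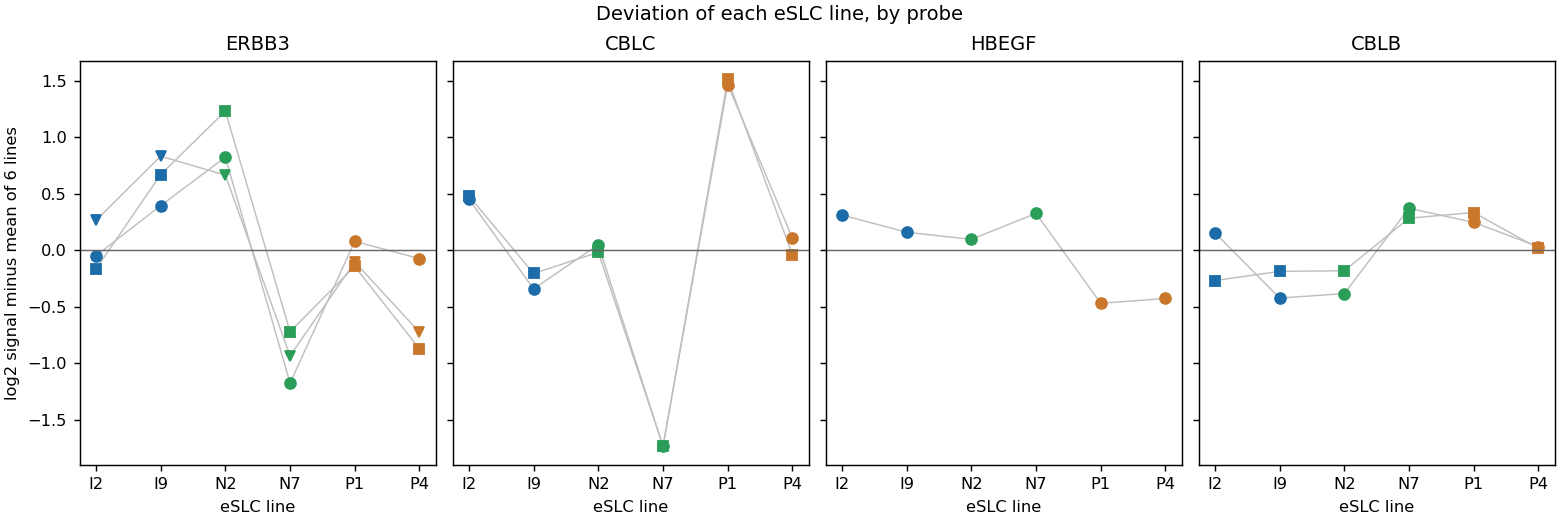
Log2 normalized signal of each eSLC line minus the mean of the 6 lines, for every probe of ERBB3, CBLC, HBEGF and CBLB (marker shapes are probes, colours the origin as before, thin lines join values of a probe). N7 lies lowest for both CBLC probes and P1 highest, while HBEGF is low in P1 and P4.

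N7, in which AREG was detected, was also the lowest line for ERBB3 and CBLC by their brightest probes, and by small margins the highest for HBEGF and CBLB. Its trophectoderm and epithelial sums, 443000 and 58010, were also the lowest, though N7 was not the lowest line for every marker. Their part was not tested. CBLB, the member higher in SCs, was 25.1 in N7 and 23.0 in P1, the next line. Passage did not order the members the same way in every origin. The later passage had less ERBB3 by log2 differences of -0.44 (I2 minus I9) and -0.15 (P4 minus P1) and more by 2.00 (N2 minus N7). For CBLC these differences were 0.79, -1.36 and 1.78.

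The table of normalized values that the authors deposited has columns of unlike scale, so that its values for different lines are not directly comparable. For the brightest probe of CBLC it lists 6554 in P1 and 6953 in P4, whose column medians are 185.6 and 118.7. Relative to these medians P4 lies above P1, while the scanner signal of P1 is 2.56 times that of P4. For the brightest probe of ERBB3 it lists 34300 in N2 and 33440 in N7, whose column medians are 134.5 and 500.8. Relative to these medians N2 lies above N7, as in the scanner signals. For the other CBLC probe it lists 1724 in P1 and 336.1 in P4. How these values were normalized between arrays is not given in the sources used here, and the medians of its columns run from 118.7 to 500.8. The differences among lines given above therefore rest on the scanner signals. AREG stood out in N7 in that table as well, at 1307 against 2.47 to 7.45 in the other lines and 53.7 and 18.7 in SCs.

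The genes whose pattern over the 8 arrays was most like that of ERBB3 were EPHX2, PTGS2 and MGLL, among 9356 genes measured on the same arrays. Likeness was the root mean square difference in log2 signal, each gene relative to its own mean, and it was 0.34, 0.36 and 0.40, where the median gene had 3.66. EPHX2, an epoxide hydrolase of lipid signalling, ranged from 2387 in N7 to 6904 in P1, with 23.6 and 15.6 in SCs. PTGS2, the inducible prostaglandin synthase, ranged from 47990 in N7 to 112300 in N2, with 257 and 97.5 in SCs. For CBLC, the member with the widest range over the lines among those detected in all 6, the nearest genes were AQP3, a water and glycerol channel (0.48), SCNN1A, a subunit of the epithelial sodium channel (0.52), and MGLL, the monoacylglycerol lipase (0.54), where the median of 9414 genes was 3.39. N7 was the lowest line for all 5 of these genes. They were chosen for their likeness to ERBB3 and CBLC, whose lowest line was N7, so this is no separate evidence about N7.

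The rest of the ERBB pathway was read from lists of 92 genes, of which 68 had a named probe and 67 were tested. In eSLCs against SCs, 9 were up-regulated and 17 down-regulated, that is 13.4% and 25.4% of those tested, beside 19.6% and 15.7% of all genes, and their median log2 difference was -0.25 beside 0.23. ADAM12 and ETV5 entered the test only through the SC arrays on which they are high, so the counts are a description. When only genes well above background on all 8 arrays were kept, 9 were up-regulated and 15 down-regulated. Without SC P5 the count of 26 genes called fell to 15. EGFR and ERBB4, the receptors of the ligands above, the neuregulins NRG1, NRG2 and NRG4, EPGN and CBL had no named probe, and NRG3 was not well above background in all arrays of any condition. Which receptor the ligands could have met in these cells was therefore not measured.

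The list of proteases and related proteins that release the ligands also held TIMP3, an inhibitor. Of its 7 genes tested, 3 were up-regulated and 2 down-regulated, beside 19.6% and 15.7% of all genes. These counts were 2 and 1 without SC P5. ADAM17, ADAM19 and RHBDF2 of this list had no named probe. RHBDL2, a rhomboid protease of the plasma membrane, was 504.9 to 2195 in eSLCs and 87.3 and 82.7 in SCs (log2 difference 3.90 ± 0.35, adjusted p = 0.000465). ADAM9 and ADAM10, metalloproteases that shed membrane proteins, were up-regulated by 1.74 and 1.58. ADAM12, a metalloprotease known from mesenchymal cells, was not well above background in any eSLC line and gave 870.0 and 1389 in SCs, at least 109.8-fold lower in eSLCs. ADAM15 fell by 2.88 on the log2 scale.

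The adaptors and the kinases from RAS to ERK had a median log2 difference of 0.096, beside 0.23 over all genes. Of 14 tested, GAB1, a docking protein that links receptors to PI3K, was up-regulated (1.07). NF1, which switches RAS off, was down-regulated (-1.33), and 12 were not called. Among all genes, 19.6% were up-regulated and 15.7% down-regulated. With the authors' normalized values, 0 genes of this list were up-regulated and 1 was down-regulated. Of 14 genes of the PI3K, AKT, PLC and STAT5 arms, 3 were up-regulated and 3 down-regulated, beside 19.6% and 15.7% of all genes. PIK3CB, a catalytic subunit of PI3K, was the largest rise among all the pathway genes named here, at 1355 to 2075 in eSLCs and 31.8 and 43.3 in SCs (5.51 ± 0.20, adjusted p = 1.5e-05). PIK3CA, another catalytic subunit, fell by 1.19 on the log2 scale, from 1456 and 1346 in SCs to 500.0 to 720.8. SRC, a kinase recruited by the receptors, was 44.0 to 77.3 in eSLCs and 11.52 and 9.35 in SCs (2.27 ± 0.23, adjusted p = 0.000687), and was not called with the floor 4 times as high. STAT5B was 5.87 to 236.7 in eSLCs, with N7 the highest, and 550.1 and 667.9 in SCs (-4.28 ± 1.11, adjusted p = 0.023). Its call was lost in 7 of 20 alternatives, among them those without I9, either PA line or either SC array. Of the 3 falls in this list, 1 was left without either PA line or either SC array. The other calls of the list were RPS6KB1, a kinase downstream of AKT (1.63), and STAT5A (-1.32).

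The list of genes that attenuate the receptors or sort them after uptake had 2 rises and 3 falls among 16 tested. Of all genes tested, 19.6% rose and 15.7% fell. The falls in the list were 2 with no filter, and also 2 by the methods' t-test after Benjamini-Hochberg. CD2AP, a scaffold that joins CBL proteins to the endocytic machinery, was 6848 to 14290 in eSLCs and 1554 and 2361 in SCs (2.23 ± 0.30, adjusted p = 0.00215). UBASH3B, a phosphatase that binds CBL, was 88.9 to 244.8 and 20.4 and 34.3 (2.47 ± 0.37, adjusted p = 0.00303). SOCS5, which promotes the decay of EGFR, was 151.9 to 378.3 in eSLCs and 3636 and 3758 in SCs (-4.04 ± 0.39, adjusted p = 0.000597). LRIG3, a membrane protein of the LRIG family, was 63.5 to 191.7 and 1031 and 1368 (-3.37 ± 0.47, adjusted p = 0.0025). Whether LRIG3 attenuates the receptors in these cells was not tested. ERRFI1, a feedback inhibitor of the receptors, fell by 1.71 on the log2 scale, at 1768 to 8187 in eSLCs and 10300 and 8874 in SCs.

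Genes that are known to be switched on by ERK were the list with most falls. In eSLCs 8 of 16 were down-regulated and none was up-regulated, beside 15.7% and 19.6% of all genes tested. The median log2 difference of the list was -1.32 beside 0.23 over all genes. The medium of the eSLCs, but not that of the SCs, held the MEK inhibitor PD184352, and its part in these values cannot be told apart from cell type. CCND1 (-3.18), FOSL1 (-3.12), SPRY1 (-3.12), SPRY2 (-2.03), IER3 (-2.03) and MYC (-1.49) were measured on all 8 arrays. ETV5 and PHLDA1 also fell, but were not well above background in 5 and 2 of the 6 lines, so that the size of their differences depends on the floor. ETV5, a transcription factor, gave 22.2 in N7 and 383.5 and 536.2 in SCs, with a fitted log2 difference of -4.97 that was -3.09 with the floor 4 times as high. DUSP6, a phosphatase of ERK and a standard readout of the pathway, did not follow: it gave 387.1, 3001, 5348, 1244, 332.3 and 1379 in I2, I9, N2, N7, P1 and P4, and 1330 and 1160 in SCs. The lines lay on both sides of the SCs, and the log2 difference was -0.01 ± 1.00 (SE; limma adjusted p = 0.998). Without SC P5, 4 of the 16 genes were called lower, and without SC P10, 5.

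**Figure D4:**
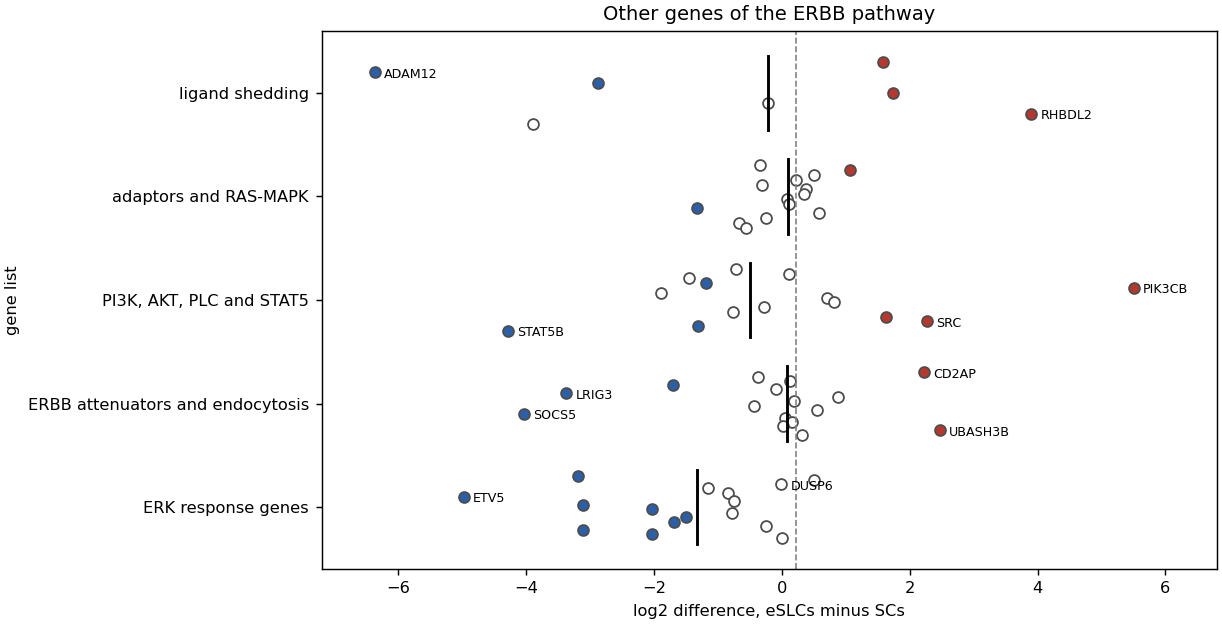
Log2 difference of eSLCs from SCs of 67 pathway genes in 5 lists (red up-regulated, blue down-regulated, white not called by limma), with the genes chosen by rule labelled. Black bars are the medians of the lists and the dashed line is the median of all genes tested, 0.23. The ERK response genes have 8 blue points and no red one.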

How the data were processed

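RNA of 6 eSLC lines and of SCs at 2 passages was measured on 8 one-colour Agilent arrays. The authors scanned the arrays with Feature Extraction (version 11.5.1.1 in the file headers) and deposited its linear signal intensities, not normalized between arrays, and a table of intensities after their own normalization in GeneSpring GX. The processed signal was not used, since in 6 of the 8 files it did not follow the background-subtracted signal (Spearman's rho 0.16 to 0.22, but 0.97 in I2 and N2), which was used instead. Control spots and 1 to 11 flagged spots per array were left out of 45220, no spot was saturated, and spots of a probe were averaged (43653 probes, of which 26743 were named). The 75th percentile, 1192 to 4092 scanner units, was set to 1000. It exceeded the weakest signal well above background 75.3- to 136.3-fold, and the number of arrays limits the precision. The floor of 13.3 is the highest of these weakest signals over the 8 arrays. The array design names an older cattle assembly, so no coordinates are given. The sources used here held no sequence of a probe, promoter or protein.

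limma 3.58.1 (R 4.3.3) compared the conditions, with a mean per condition and all 8 arrays in 1 fit. On simulated data for eSLCs against SCs (10962 genes, 200 changed) the step recovered 0% of 2-fold, 77.5% of 4-fold and 91% of 8-fold changes, with no wrong sign and 0 to 12 unchanged genes called. A call also needs a difference of at least 2-fold, which limits the first rate. The simulated signals had no floor, and in the data 19.6% and 15.7% of genes were called, so these rates are not those of the fits above. Members, gene lists and tests were chosen with earlier results of these data known. The genes named are all 10 members, the 5 largest rises and 5 largest falls among pathway genes called with arrays that do not overlap, EGFR, ERBB4, CBL and DUSP6, the 3 genes nearest in pattern to ERBB3 and to the member of widest range among those well above background in all 6 lines, and the brightest marker of each list. The other genes called in a pathway list were named after their values were seen. Alternatives were scaling to the median, quantile normalization, normexp background, a filter on all 8 arrays, no filter, a floor 4 times as high, the SC arrays as 1 sample, averaging the probes of a gene, the 6 eSLC arrays as 1 condition, the authors' normalized values, the slide as a block, the methods' t-test and leaving out each array. matplotlib 3.10.9 under Python 3.11.15 drew the figures.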

Additional observations from a re-analysis of the deposited data

Results flagged for a closer look

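AREG in N7, with a normalized signal of 175.1, stood apart from the other 5 eSLC lines, in which the probe was not well above background. It was the 1 case among 9 member probes examined in the 6 lines in which the gap of the highest or lowest array to the next exceeded Dixon's 95% critical value. Chance alone flags about 1 in 20 such groups. AREG has 1 probe on the array, and N7 is 1 array of 1 passage.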

How the results depend on the processing

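Of 21 alternatives, ERBB3 kept its direction and call in eSLCs against SCs in all 21 (log2 difference 4.70 to 8.89) and CBLB in all 21 (-2.98 to -1.40). CBLC did so in all 20 that could be fitted (5.84 to 8.13), and HBEGF in 19 of 20 (0.40 to 2.42). With only genes well above background on all 8 arrays, 2 members were called for eSLCs and for IVP-, NT- and PA-eSLCs against SCs, since the other 3 were not tested. For NT-eSLCs the methods' t-test after Benjamini-Hochberg called 0, and for PA-eSLCs the authors' normalized values called 2, ERBB3 and CBLC; the cause was not tested. Leaving out an array gave 4 to 5 members called for eSLCs and NT-eSLCs against SCs, 4 for IVP- and PA-eSLCs, 0 to 1 between NT- and IVP-eSLCs and 0 between PA- and IVP-eSLCs. The member gained was AREG without N2, whose log2 difference for eSLCs was then 1.096. N7 alone stood for the NT lines there, so that this gain rests on an error without the spread of the NT lines. Pathway genes called, 26 in all, were 15 to 28 when an array was left out and 15 with the SC arrays as 1 sample. AREG was -0.14 with normexp background and without N7. DUSP6 was 0.024 with normexp background and ranged from -0.50 (without I9) to 0.48 (without I2) when an array was left out, with 0.34 without N7, 0.33 without P1 and 0.09 without SC P5. STAT5B stayed between -4.98 and -3.10 where its call was kept or lost, and SRC was 0.31 with the higher floor.

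Normexp on the mean signal was not run, since the files hold no such column, and normexp on the median signal was chosen after seeing the data. No paired analysis was possible because the labels give every sample the replicate number 1, and the numbers used here only name the arrays of a group. Signals at the floor (HBEGF and CBLC in SCs, AREG in 5 lines) give bounds only. AREG in SC P10, well above background at 11.48, was also raised to the floor in the fit. With 2 arrays per origin, differences among origins of 2-fold lay within most intervals.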
